A study of Mus musculus with 44 samples.

Results

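The 9 genes described here encode interferon signalling factors and the proteins that feed back on them. They are the transcription factors Stat2, Irf1, Irf7, Irf8 and Irf9, the inhibitors Socs1, Socs3 and Usp18, and the ubiquitin-like protein Isg15. They were taken by symbol, as a fixed list, and all 9 of 9 were found among the 55487 gene identifiers in each of the 2 count tables. Every one passed the filter on low counts in both tables.

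Interferons are secreted proteins that act through receptors on the cell surface. Receptor-bound Janus kinases phosphorylate STAT proteins, and a complex that holds STAT2 and IRF9 then enters the nucleus and binds interferon-stimulated response elements. STAT dimers, formed for example downstream of interferon gamma, bind a different sequence, the gamma-activated site. Among the genes induced are further IRF factors, which extend the response, and SOCS1, SOCS3 and USP18, which restrain it at the kinases or at the type I receptor. In brain, microglia are known for high IRF8, and neurons, glia and blood-derived cells can all respond to interferon.

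The series measured RNA in the mouse nucleus accumbens after infusion of a viral vector carrying retinoid X receptor alpha (RXRa), a ligand-activated nuclear receptor, or only a fluorescent protein. The bulk libraries came from male tissue, 4 with the herpes simplex vector HSV-GFP and 4 with HSV-RXRa-GFP, so both bulk groups carried a herpes vector and GFP. The sorted libraries came from nuclei of cells labelled D1 or D2, the dopamine-receptor classes of striatal projection neuron, from females and males that received the Cre-dependent vector AAV9-CAG-DIO-EGFP or AAV9-CAG-DIO-EGFP-P2A-RXRa. D1 held 10 EGFP and 8 RXRa libraries and D2 held 9 and 8, each with both sexes. Age, strain and the Cre driver are not given in the labels, and nothing there says that libraries came from separate animals, so p-values measure the spread between these samples, which may be technical.

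The bulk libraries held 21567565 to 29167142 counts each, and the 35 sorted libraries used held 12211655 to 27757463. The vector-encoded RXRa sequence had 0 counts in the 4 bulk GFP libraries and 22.1 to 37.7 CPM (counts per 1000000 counts, scaled by TMM) in the 4 bulk RXRa libraries. In the sorted libraries it lay at 0 to 0.877 CPM in 19 controls and at 43.4 to 710.2 CPM in 16 RXRa libraries. The sorted labels were checked on the receptor genes that define them: Drd1 had a median of 50.9 CPM in D1 and 15.1 in D2, and Drd2 had 64.8 in D1 and 803 in D2.

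The first comparison asks how the genes changed in bulk tissue with RXRa. All 9 had a higher mean in the RXRa group, by 1.67-fold to 2.58-fold, and 6 of the 9 passed an adjusted p under 0.05. Over all 18579 genes tested, 3.01% passed in that direction, and the median log2 fold change of all genes was -0.02 against 1.01 for the 9 genes. Socs1, Irf7, Usp18, Stat2, Isg15 and Irf9 rose. Irf1, Irf8 and Socs3 had higher means but did not pass the test. Each RXRa library lay above every GFP library for 8 of the 9 genes, against 6.64% of all genes tested, with Socs3 as the exception.

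**Figure D1:**
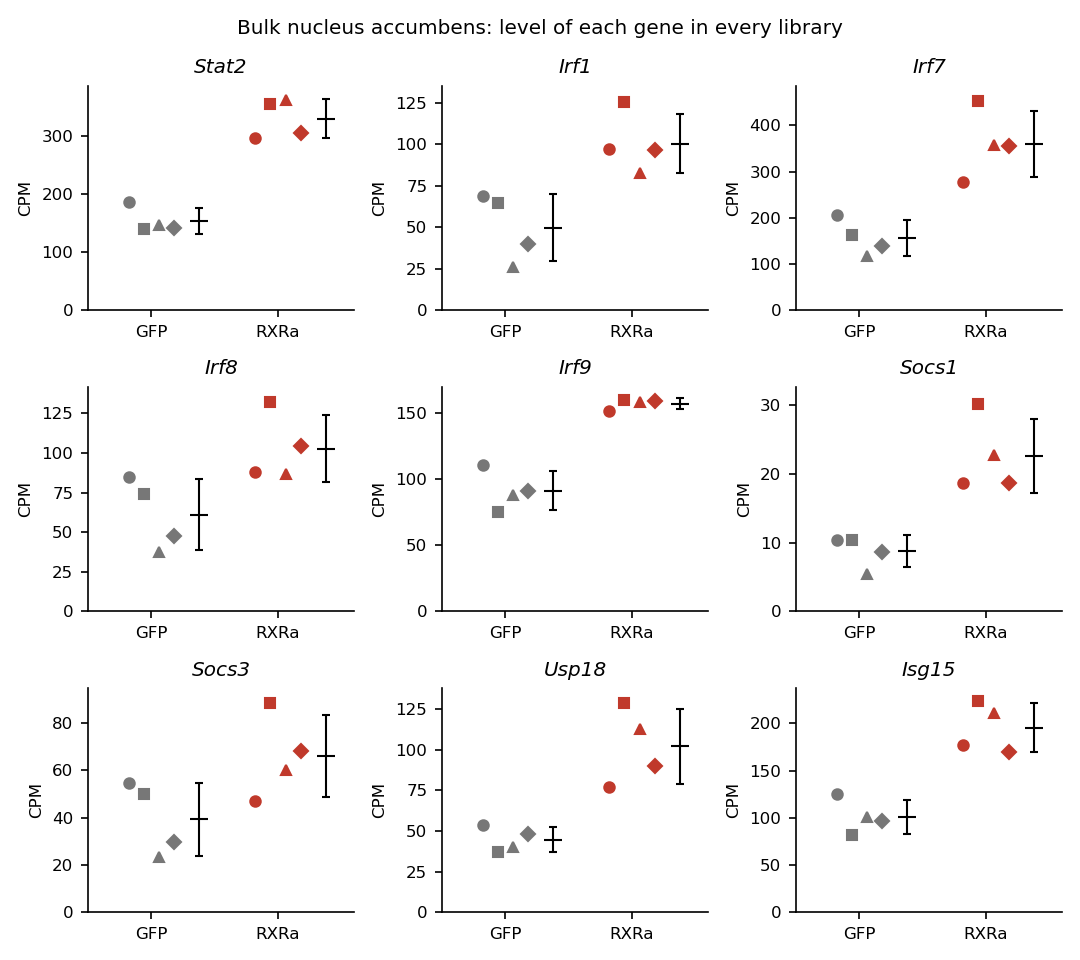
Level of each of the 9 genes in CPM (y axis, from 0) in the 4 GFP and 4 RXRa bulk libraries (x axis); marker shape gives the replicate number within a group, and the black bar is the group mean with its SD. Stat2 runs from 139.8 to 186 in GFP and from 295.5 to 361 in RXRa, with a gap between the groups, whereas the Socs3 groups overlap.

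Stat2 and Irf9 encode parts of the transcription factor complex of the type I interferon response. Stat2 (ENSMUSG00000040033, plus strand of chromosome 10, 128270559 to 128292849 on GRCm38) had 186, 139.8, 147.5 and 142 CPM in the 4 GFP libraries and 295.5, 355, 361 and 305 in the 4 RXRa libraries. The groups did not overlap, and Stat2 rose 2.14-fold, with a log2 fold change of 1.10 (SE 0.11, adjusted p = 0.0069). Irf9 (ENSMUSG00000002325, chromosome 14, 55603571 to 55610030) had 110.4, 75.0, 87.8 and 91.0 CPM under GFP and 151, 159.5, 158 and 159 under RXRa. The RXRa libraries lay close together, at 157 ± 3.95 (SD, n = 4), and Irf9 rose by a log2 fold change of 0.78 (SE 0.10, adjusted p = 0.0090). Its exons overlap those of Rnf31 on the same strand, so the 2 genes may share reads.

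Irf7, Irf1 and Irf8 are the other IRF factors of the list. Irf7 (ENSMUSG00000025498, chromosome 7, 141262706 to 141266481), which drives the later wave of interferon alpha genes, had 207, 163, 117 and 140 CPM under GFP and 277, 451, 356.5 and 355 under RXRa. It rose 2.30-fold (log2 fold change 1.20, SE 0.19, adjusted p = 0.0142), and its exons overlap those of Phrf1 on the opposite strand. Irf1 (ENSMUSG00000018899, chromosome 11, 53770014 to 53778374), an early interferon-induced gene, had 68.8, 64.4, 26.3 and 40.2 CPM under GFP and 97.2, 125, 83.0 and 96.6 under RXRa. The groups did not overlap, but the GFP libraries spread widely and the log2 fold change of 1.01 had an SE of 0.27 and an adjusted p of 0.0776. Its exons overlap those of Gm17334 on the opposite strand. Irf8 (ENSMUSG00000041515, chromosome 8, 120736358 to 120756694), a factor of microglia, monocytes and dendritic cells, had 84.98, 74.2, 37.7 and 47.7 CPM under GFP and 87.9, 132, 86.49 and 104 under RXRa. The highest GFP library and the lowest RXRa library nearly met, and the log2 fold change was 0.75 (SE 0.25, adjusted p = 0.130).

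Of the 3 inhibitors 2 rose, Socs1 and Usp18. Socs1 (ENSMUSG00000038037, chromosome 16, 10782240 to 10785536), which blocks the Janus kinases directly, was the least abundant of the 9, with 10.4, 10.4, 5.52 and 8.705 CPM under GFP and 18.7, 30.2, 22.8 and 18.8 under RXRa. It also had the largest fold change of the 9 and rose 2.58-fold (log2 fold change 1.37, SE 0.22, adjusted p = 0.0156). Usp18 (ENSMUSG00000030107, chromosome 6, 121245906 to 121270917), the ISG15-specific protease that also binds the type I receptor, had 53.5, 36.9, 40.5 and 48.3 CPM under GFP and 76.8, 129, 113 and 89.9 under RXRa. Usp18 rose 2.28-fold (log2 fold change 1.19, SE 0.17, adjusted p = 0.0122), and it overlaps the exons of Gm44148, a long noncoding RNA on the opposite strand. Socs3 (ENSMUSG00000053113, chromosome 11, 117966079 to 117970047), known mainly for limiting signals through the receptors of the IL-6 family and STAT3, had 54.8, 50.1, 23.2 and 29.6 CPM under GFP and 47.0, 88.3, 60.3 and 68.2 under RXRa. RXRa library 1 lay below GFP libraries 1 and 2, and the log2 fold change of 0.74 had an SE of 0.28 and an adjusted p of 0.174.

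Isg15 (ENSMUSG00000035692, chromosome 4, 156199424 to 156200818), the ubiquitin-like protein that is attached to other proteins after interferon exposure, had 125.5, 82.3, 101 and 96.5 CPM under GFP and 177.5, 223, 211.5 and 170.3 under RXRa. The groups did not overlap, and Isg15 rose 1.93-fold (log2 fold change 0.95, SE 0.13, adjusted p = 0.0116). Without GFP library 4, only Stat2 among the 9 passed (adjusted p = 0.046), and over all genes the count passing in either direction fell from 687 to 9. Leaving out any other bulk library kept the same 6 genes past the threshold.

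Per kb of exon, Isg15 was the most abundant of the 9 in GFP tissue, at 134 ± 23.8 CPM per kb (SD, n = 4). Irf7 followed at 41.4 ± 10.2 and Stat2 at 25.9 ± 3.67, and their ranges overlapped. Irf9, Usp18, Socs3, Irf1 and Irf8 came next, between 16.9 and 8.67 on average, with each overlapping its neighbour in the order. Socs1 was lowest, at 3.01 ± 0.794, below every Irf8 library. The top 3 and the bottom 2 places were the same in RXRa tissue, where Isg15 had 259 ± 34.1 and Socs1 had 7.78 ± 1.86 CPM per kb (SD, n = 4). Only Isg15 and Irf7, Irf7 and Stat2, Stat2 and Usp18, and Irf8 and Socs1 were neighbours there without overlap.

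The sequence before RefSeq start sites of these genes was searched for the elements that interferon-activated factors are known to bind. RefSeq promoter windows, cut at 250 bases before the start site on GRCm38.p6, were matched for 8 of the 9 genes. These gave 11 windows, as Irf1, Irf8 and Irf9 had 2 each. The core of the interferon-stimulated response element was searched as GAAANNGAAA and the gamma-activated site as TTCNNNGAA, each on both strands. The first was found upstream of 3 genes (Isg15, Stat2 and Socs1), in 3 of the 11 windows. Over all 32851 promoter windows of this length the share was 2.98%. The second was found before a RefSeq start of 3 other genes (Irf8, Irf1 and Socs3), in 3 of the 11 windows. Its share over all windows was 7.02%. The Socs3 window lies inside the gene body given above, so its match is not upstream of the whole gene. The letters of neither were found in these windows of Irf7 and Irf9. Nor were they found in the other windows of Irf1 and Irf8, which lie inside the gene bodies. The Irf9 windows also lie inside its gene body and the Irf7 window partly does, so sequence upstream of the whole Irf9 gene was not searched. The matched stretches are shown 5′ to 3′ on the gene's own strand, with the matched bases in capitals.
Isg15: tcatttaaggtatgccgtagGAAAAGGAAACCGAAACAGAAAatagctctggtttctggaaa
Stat2: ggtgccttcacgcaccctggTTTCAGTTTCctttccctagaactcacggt
Socs1: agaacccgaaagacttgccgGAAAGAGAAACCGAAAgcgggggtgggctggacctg
Irf8: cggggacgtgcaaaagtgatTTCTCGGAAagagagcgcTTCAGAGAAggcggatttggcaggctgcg
Irf1: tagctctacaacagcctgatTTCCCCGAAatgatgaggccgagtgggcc
Socs3: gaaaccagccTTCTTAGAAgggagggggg
These lie at chr4:156200855-156200916 (Isg15, minus strand), chr10:128270256-128270305 (Stat2, plus), chr16:10785584-10785639 (Socs1, minus), chr8:120736167-120736233 (Irf8, plus), chr11:53769904-53769952 (Irf1, plus) and chr11:117969502-117969530 (Socs3, minus). Isg15 held 3 overlapping matches and Socs1 held 2, while Stat2 held 1, on the opposite strand. The 3 genes with the response element core all rose in bulk, and the 3 with a gamma-activated site were the 3 that did not pass. That split depends on the test, as Irf1 and Irf8 passed with DESeq2 (adjusted p = 0.0039 and 0.0318). Irf1 also had a larger log2 fold change than Isg15, 1.01 against 0.95. With so few genes the split is only a description of the list. A match is a run of letters and was not tested for binding.

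Other genes of the pathway were read from a list of 73, ordered by role. In bulk 51 of them passed the filter on low counts, 15 rose, 0 fell and 36 did not pass, with a median log2 fold change of 0.43. Over all genes tested in bulk, 3.01% were called higher and 0.689% lower, with a median of -0.02. The list was drawn up with earlier results of these data known, so its count is a description.

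**Figure D2:**
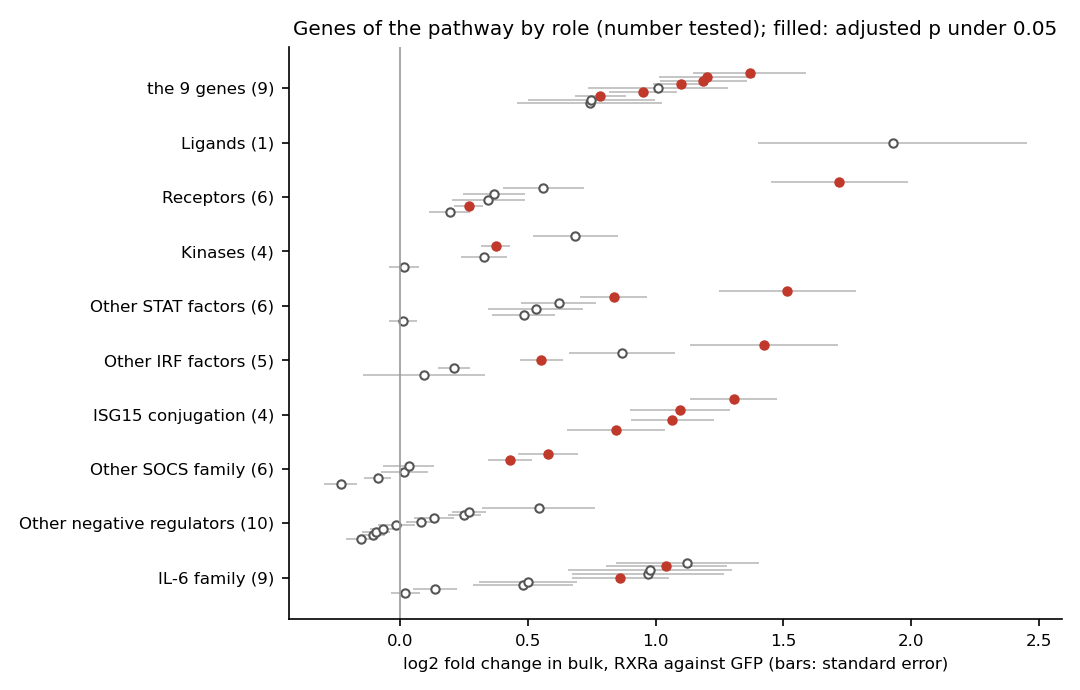
Log2 fold change in bulk, RXRa against GFP (x axis, bars are standard errors), for the 9 genes and for pathway genes grouped by role (y axis, number tested in brackets); filled points passed an adjusted p of 0.05. All 4 genes of ISG15 conjugation lie to the right with filled points, while none of the 10 other negative regulators does.

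The ligands themselves were scarce. All 18 type I interferon genes listed had at most 6 counts in any bulk library, and Ifnb1, the interferon beta gene, had 5, 3, 2 and 0 counts under GFP and 3, 6, 4 and 3 under RXRa. The interferon lambda genes Ifnl2 and Ifnl3 had 8 and 4 counts summed over the GFP libraries and 32 and 27 over the RXRa libraries; both were below the filter on low counts and had overlapping groups. The only ligand that could be tested was Ifng, the gene of interferon gamma, made by NK and T cells. It had 0.672, 0.579, 0.074 and 0.413 CPM under GFP and 1.02, 2.92, 0.922 and 1.74 under RXRa, all of the latter higher, and its log2 fold change of 1.93 did not pass (SE 0.53, adjusted p = 0.0791).

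Of the 6 receptor genes 2 rose, Ifnlr1 with a log2 fold change of 1.72 (SE 0.27, adjusted p = 0.0136) and Ifngr2 with 0.27 (SE 0.06, adjusted p = 0.037). Ifnlr1 encodes the specific chain of the interferon lambda receptor and was low, at 0.531 CPM under GFP and 1.77 under RXRa. The type I receptor genes Ifnar1 and Ifnar2 had log2 fold changes of 0.20 and 0.37 and did not pass (adjusted p = 0.201 and 0.129). Among the 4 kinase genes, Tyk2 rose by 0.37 (SE 0.06, adjusted p = 0.0132) while Jak1, at 171 and 173 CPM, had a log2 fold change of 0.02 (adjusted p = 0.904).

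Of the 6 other STAT genes 2 rose, among them Stat4, the factor used by interleukin 12 in lymphocytes, with a log2 fold change of 1.52 (SE 0.27, adjusted p = 0.0212). Of the 5 other IRF genes 2 rose, Irf2 with 0.55 (adjusted p = 0.0132) and Irf4 with 1.42 (adjusted p = 0.0329). All 4 genes that attach ISG15 to its targets rose. They were Uba7, the activating enzyme, with a log2 fold change of 1.31 (adjusted p = 0.00901), Ube2l6, the conjugating enzyme, with 1.10 (adjusted p = 0.0214), and the ligases Herc6 with 1.06 (adjusted p = 0.0132) and Trim25 with 0.84 (adjusted p = 0.0467).

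The other inhibitors moved less. Among 6 further SOCS family genes Cish (0.58, adjusted p = 0.0324) and Socs2 (0.43, adjusted p = 0.0312) rose, both known as targets of STAT5, and the median of the 6 was 0.03. None of 10 phosphatases, PIAS proteins and IRF2-binding proteins passed, and their median was also 0.03. Of 9 tested genes of IL-6 family cytokines and of receptors that act through STAT3, 2 rose. They were Clcf1, a cytokine of the IL-6 family, with 1.04 (adjusted p = 0.0467) and Il10ra, a chain of the interleukin 10 receptor, with 0.86 (adjusted p = 0.0421).

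Over the 8 bulk libraries, the genes whose centred log2(CPM + 1) profile lay nearest to the median profile of the 9 were Ifit3, Trim21, Gbp7, Parp9 and AC119228.1. Their root-mean-square difference from it was 0.06, 0.07, 0.08, 0.08 and 0.10, against a median of 0.644 over the 16000 genes compared. These libraries include the contrast above, so the likeness holds the difference between the groups.

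Markers of several cell types moved with the 9 genes in bulk, with the largest fold changes in lists of blood-derived cells. The shares to set beside their counts are 3.01% of all genes called higher and 0.689% called lower. The sum of 6 NK cell markers ranged from 11.8 to 14.6 CPM under GFP and from 26.1 to 66.0 under RXRa, and 5 of the 6 rose, among them Gzmb (log2 fold change 1.84, adjusted p = 0.0112) and Nkg7 (1.81, adjusted p = 0.0166). The sum of 6 monocyte markers ranged from 52.0 to 119 and from 179 to 338.5 CPM, and 3 of the 6 rose, among them Ly6c2 (2.02, adjusted p = 0.0142) and Ms4a4c (1.69, adjusted p = 0.0132). Of 8 T cell markers 5 rose, including Lck (1.24, adjusted p = 0.0186), while Cd4 had a log2 fold change of -0.22 (adjusted p = 0.394), and the summed ranges of 52.3 to 66.6 and 61.1 to 110.7 CPM overlapped.

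None of the 12 microglial and macrophage markers passed, with Csf1r at 0.20 (adjusted p = 0.483) and C1qa at 0.24 (adjusted p = 0.5003). Their sum was 1908, 1575, 1178 and 1334 CPM in GFP libraries 1 to 4 and 1415, 1990, 1452 and 1774 CPM in the RXRa libraries. GFP library 1 was highest and GFP library 3 lowest within their group for this sum and for the monocyte and endothelial sums. The same held for Irf1, Irf7, Irf8, Socs1 and Socs3. RXRa library 2 was the highest of its group for the microglial sum and these 5 genes, but also for Irf9, Usp18 and Isg15. It was highest too for the NK cell, T cell, B cell, dendritic cell, astrocyte, oligodendrocyte and endothelial sums, so its high values were not particular to microglia. No dendritic cell marker passed among 5 tested, nor any B cell marker among 3. The sum of 4 neutrophil markers was lower with RXRa, at 1.07 to 2.81 CPM under GFP and 0.405 to 1.03 under RXRa, without overlap; Ly6g had 0 counts in all 8 bulk libraries, and S100a9, the only one tested, had a log2 fold change of -1.55 and did not pass (adjusted p = 0.118). Of 5 endothelial markers Kdr (0.71, adjusted p = 0.0284) and Cdh5 (0.59, adjusted p = 0.0234) rose. The other 3 did not pass, among them the 2 most abundant, Flt1 at -0.01 (adjusted p = 0.946) and Cldn5 at 0.07 (adjusted p = 0.809). The median of the 5 endothelial markers was 0.40. Their sums overlapped, at 176.1 to 244.3 CPM under GFP and 238.1 to 270.6 under RXRa. Of 6 astrocyte markers Aqp4 (0.57, adjusted p = 0.0478) rose. The other 5 astrocyte markers did not pass and went both ways, with Gfap at 0.32 (adjusted p = 0.231) and Slc1a2 at -0.33 (adjusted p = 0.145). The median of the 6 was 0.14, and their sums overlapped, at 3792 to 4046 CPM under GFP and 3436 to 4104 under RXRa. Among the D2 markers Gpr6 fell by 0.39 (adjusted p = 0.0385). Of 5 projection neuron markers Bcl11b fell by 0.31 (adjusted p = 0.0359), and Ppp1r1b had -0.19 (adjusted p = 0.173). More cells of a type and more RNA per cell cannot be told apart in bulk tissue, and the part of any of these cells in the rise of the 9 genes was not tested.

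**Figure D3:**
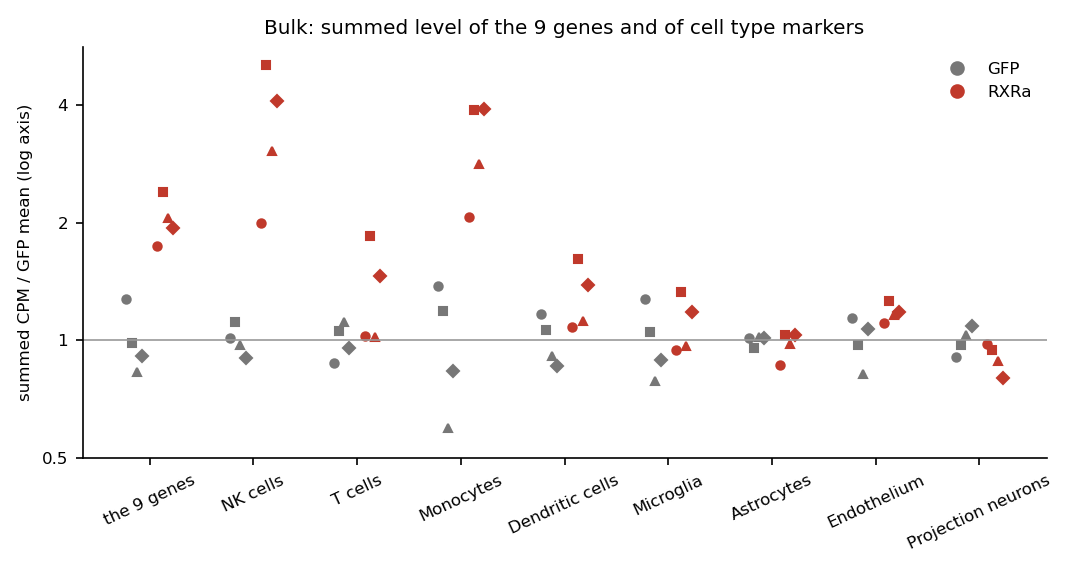
Summed CPM of the 9 genes and of marker lists for 8 cell types in each bulk library, divided by the mean of the 4 GFP libraries (log axis); marker shape gives the replicate number. The NK cell and monocyte sums separate the groups as the 9 genes do, with NK sums of 11.8 to 14.6 CPM in GFP and 26.1 to 66.0 in RXRa, while the microglial sums overlap.

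The second comparison asks whether the genes changed in sorted D1 or D2 nuclei with RXRa. In D1 none of the 9 passed, and 0% of the 43902 genes tested passed in either direction (3518 had an unadjusted p under 0.05, and DESeq2 gave 0 as well). Their log2 fold changes ran from -0.19 for Socs3 to 0.02 for Isg15, with a median of -0.06 against -0.01 for all genes. Stat2 had the smallest unadjusted p, 0.0495, with an adjusted p of 0.62.

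In D2 none of the 9 passed either, although 22.1% of the 43902 genes did. The log2 fold changes ran from -0.33 for Irf9 to 0.02 for Isg15, with a median of -0.11 against -0.04 for all genes. Irf9 came nearest (SE 0.14, adjusted p = 0.0716), and it passed without D1 male RXRa library 1 (adjusted p = 0.0369) or library 3 (adjusted p = 0.0336). These D1 libraries are outside the D2 contrast but were fitted together with the D2 libraries. The median log2 fold change of all genes in D2 was -0.06 without library 1 and -0.04 without library 3. Why Irf9 then passed was not tested. With silent-gene density, a measure of background defined below, as a covariate, 0 of all genes passed in D2 (2061 had an unadjusted p under 0.05).

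**Figure D4:**
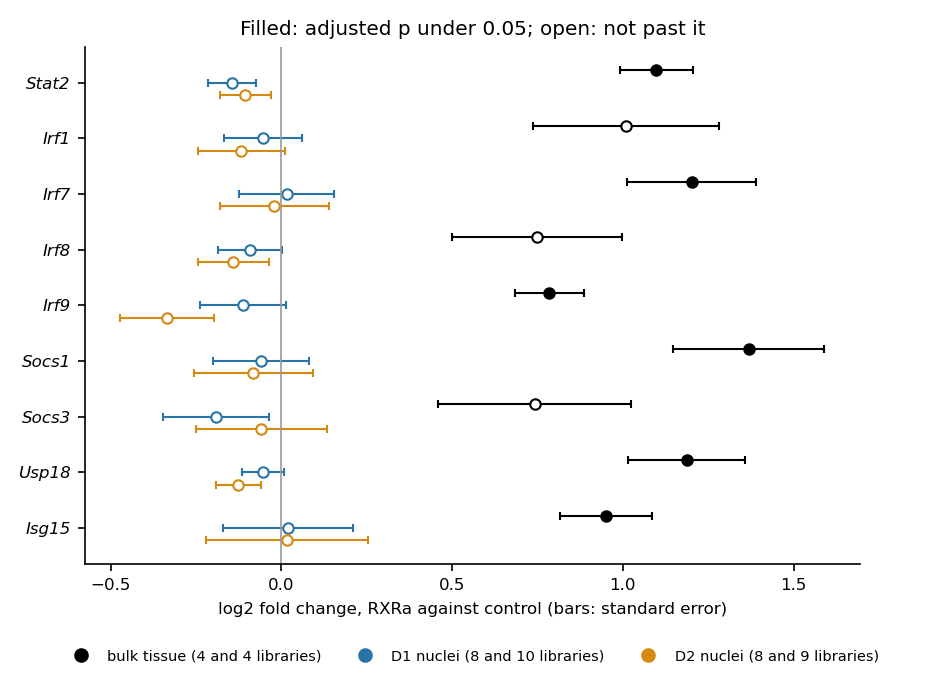
Log2 fold change of each of the 9 genes with RXRa (x axis, bars are standard errors) in bulk tissue, D1 nuclei and D2 nuclei; filled points passed an adjusted p of 0.05. The bulk points lie between 0.74 and 1.37, and the D1 and D2 points lie between -0.33 and 0.02.

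Stat2 in D1 ranged from 15.9 to 18.6 CPM with a median of 17.0 in 10 EGFP libraries and from 12.6 to 17.5 with a median of 15.7 in 8 RXRa libraries. In D2 it ranged from 11.5 to 19.4 (median 15.6, 9 libraries) and from 13.0 to 17.4 (median 15.01, 8 libraries). The groups overlapped in both classes, and the log2 fold changes of -0.14 (SE 0.07) in D1 and -0.11 (SE 0.07) in D2 had upper bounds, at 2 standard errors, of -0.0026 and 0.043. The bulk lower bound by the same measure was 0.88. Bulk and sorted samples differ in vector, RNA source and library type, and the difference between them was not tested.

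Irf9 in D2 females had 5.42, 8.45, 7.14 and 5.11 CPM in the EGFP libraries and 4.00, 4.26, 4.64 and 4.68 in the RXRa libraries, with no overlap. The share of all genes without overlap in D2 females was not counted. Of the 43902 genes tested there, 11080 had an unadjusted p under 0.05. In D2 males it had 4.66, 4.02, 4.44, 4.99 and 5.50 under EGFP and 3.90, 4.03, 4.30 and 5.33 under RXRa, where the groups overlapped. The log2 fold change was -0.55 (SE 0.19, adjusted p = 0.102) in females and -0.12 (SE 0.19, adjusted p = 0.758) in males. In D1 it was -0.11 (SE 0.13, adjusted p = 0.796).

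Isg15 was read from few counts, 4 to 30 per sorted library. In D2 females it had 0.733, 1.28, 0.492 and 1.01 CPM under EGFP and 0.693, 0.825, 0.491 and 0.556 under RXRa, and in D2 males 0.337, 0.372, 0.287, 0.713 and 0.813 under EGFP and 0.664, 0.923, 0.453 and 0.730 under RXRa. Its log2 fold change was -0.47 (SE 0.33) in females and 0.50 (SE 0.35) in males. The difference between the sexes, 0.96, did not pass (unadjusted p = 0.0555, adjusted p = 1). At 2 standard errors its RXRa effect over both sexes reached at most 1.32-fold in D1 and 1.40-fold in D2, and in D2 males alone 2.31-fold. These bounds hold for counts near the background defined below (median ratio 1.03), so they do not bound a change in Isg15 above that background.

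Irf7 ranged from 1.66 to 2.31 CPM under EGFP and from 1.53 to 2.94 under RXRa in D1, and from 1.04 to 2.95 and from 1.28 to 2.62 in D2. Its log2 fold changes were 0.02 (SE 0.14) and -0.02 (SE 0.16), and like those of Isg15 they were near 0 and turned sign with the scaling (library totals only gave -0.055 for Irf7 in D1, and RLE factors 0.003 in D2). Irf1, Irf8, Socs1, Socs3 and Usp18 had log2 fold changes of -0.19 to -0.05 in D1 and of -0.14 to -0.06 in D2, with adjusted p between 0.728 and 0.908 in D1 and between 0.158 and 0.856 in D2.

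Within single sexes, none of the 9 genes passed in D1 females, D1 males, D2 females or D2 males, and 0% of all genes tested passed in any of these 4 contrasts. Without D2 female RXRa library 3 the count over all genes in D2 females was 6699, and without D2 male RXRa library 1 that in D2 males was 5986; none of the 9 passed in either. The counts of genes at an unadjusted p under 0.05 were 2757, 1326, 11080 and 8656, and DESeq2 called 4 and 12 genes in D1 females and D2 males and 0 in the other 2. No gene passed for the difference between the sexes in D1 or D2 or for the difference between the RXRa effects in D2 and D1 (0% each, with 912, 1324 and 3609 at an unadjusted p under 0.05, and 2, 0 and 0 by DESeq2). For the 9 genes the difference of the effects, D2 minus D1, ran from -0.22 for Irf9 to 0.13 for Socs3.

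The third comparison sets D2 against D1 nuclei under EGFP, where 0.121% of the 43902 genes passed and none of the 9 did. Their log2 differences, D2 minus D1, ran from -0.28 for Socs1 (SE 0.15, adjusted p = 0.509) to 0.21 for Irf9 (SE 0.12, adjusted p = 0.557). Socs1 had 1.53 ± 0.337 CPM in D1 (SD, n = 10) and 1.24 ± 0.242 in D2 (SD, n = 9), and Irf9 had 4.80 ± 0.720 and 5.53 ± 1.41.

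The sorted levels were set against a background. Coding genes on the autosomes, 5 kb or longer and without a single bulk count, numbered 1576, and total RNA from nuclei did give counts for them. Their counts followed the length of the gene body (Spearman's rho 0.797 across genes, which are not independent replicates) more than that of the exons (0.0672). Their median level per kb of body, in CPM and called the silent-gene density, ranged from 0.380 to 0.565 between libraries, with medians of 0.511 and 0.476 in D1 EGFP and RXRa and 0.532 and 0.459 in D2 EGFP and RXRa. The arms overlapped, with ranges of 0.472 to 0.539 and 0.380 to 0.540 in D1 and of 0.481 to 0.565 and 0.386 to 0.537 in D2, and the difference between them was not tested.

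All 9 genes had a median ratio to that density inside the range held by the 5th to 95th percentile of the silent genes, 0.352 to 1.56. The bodies of Isg15, Socs1, Irf7 and Socs3 (1.395, 3.297, 3.776 and 3.969 kb) are shorter than any silent gene used, so for these 4 the range is carried over from longer genes. The highest medians were 1.45 for Stat2 and 1.41 for Irf9, and the lowest were 0.515 for Socs3 and 0.555 for Irf8. Usp18, at 12.2 ± 1.07 CPM (SD, n = 35), had a ratio of 0.988, with a gene body of 25.01 kb and only 2.79 kb of exon. Isg15 had a ratio of 1.03 and Irf7 1.02. For comparison, the projection neuron gene Rgs9 had a median ratio of 7.94 and Ppp1r1b one of 6.59, and the microglial genes Cx3cr1 and Csf1r had 0.968 and 1.14. By this measure a level above background was therefore not detectable in these sorted libraries for the other 5 genes, Stat2, Irf1, Irf8, Irf9 and Usp18. For the 4 shorter genes the range was not measured at their length, though their ratios lay inside it. The sorted fold changes of all 9 genes are those of values near background.

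**Figure D5:**
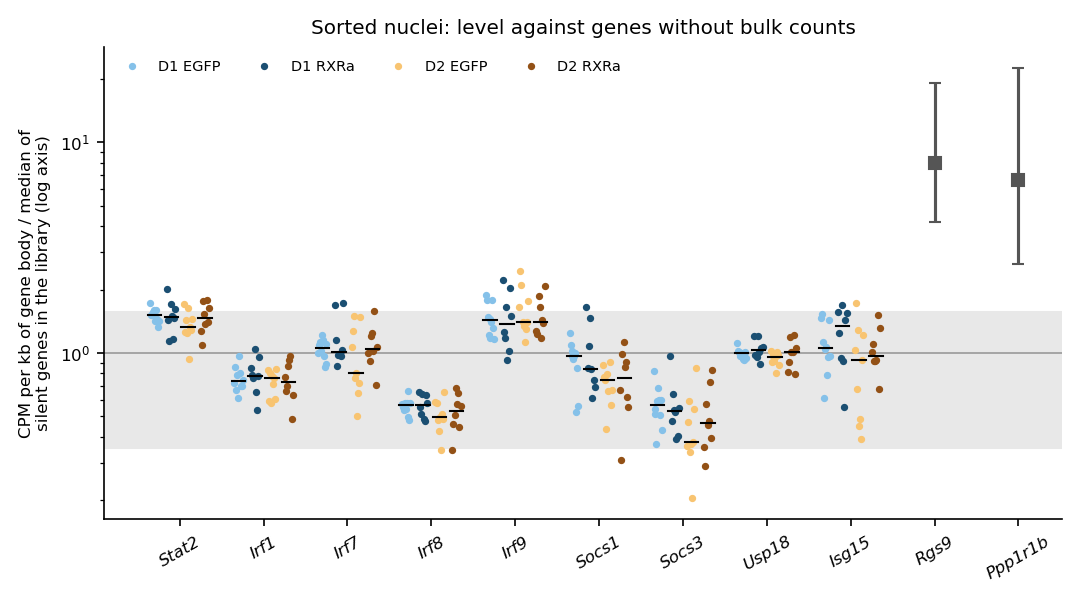
Level of the 9 genes in each sorted library as CPM per kb of gene body divided by the silent-gene density of that library (log axis), by class and vector, with group medians as black lines; the grey band spans the 5th to 95th percentile of the silent genes, and squares with bars give the median and full range of Rgs9 and Ppp1r1b. The 9 genes lie around the band, with median ratios of 0.515 to 1.45, and both neuronal genes lie above it.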

How the data were processed

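The authors deposited raw gene counts, in 1 table of 8 bulk and 1 of 36 sorted libraries. Per the submitters' processing notes, FastQC, Trimmomatic, HISAT2, Picard, featureCounts, Subread and the build GRCm38 were used; the annotation release, use of strand and treatment of introns are not given in the sources used here. Per the labels' protocols, bulk libraries were poly(A)-selected and sorted libraries were ribosomal-RNA-depleted with a stranded kit. The title of 1 sorted library disagrees with its vector label, and it was left out.

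Differential expression was tested with the quasi-likelihood test of edgeR 4.0.16 in R 4.3.3 (filterByExpr by group, TMM scaling), on all genes of a table, with Benjamini-Hochberg adjustment over all genes tested. Bulk was fitted alone; the 35 sorted libraries were fitted together as 8 groups, with the sexes weighted equally, and 11 contrasts were tested in all. Standard errors are the log2 fold change over the root of F. Alternatives were RLE factors, library totals only, DESeq2 1.42.0, other filters, a replicate block, silent-gene density as a covariate and leaving out each library. Positions and lengths come from GENCODE M21 on GRCm38, which holds 55394 of the 55487 identifiers. All 9 genes are named, with pathway genes of the 4 smallest p in each role or needed for it, the 2 highest markers of a list, and the 5 nearest profiles; Cd4, Lck, Bcl11b, Drd1, Drd2, Rgs9, Cx3cr1, Ly6g, S100a9, Kdr, Cdh5, Aqp4 and Gpr6 were added after their values were seen. The genes and lists were chosen with earlier results of these data known. Counts allow no separation of overlapping genes, and p-values of 0.05 or more do not show that values are alike.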

Additional observations from a re-analysis of the deposited data

Results flagged for a closer look

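Dixon's ratio was computed for the 9 genes within each of 10 groups, 90 tests in all, and 4 libraries stood apart from the rest of their group; chance gives about 1 in 20. Stat2 was 186 CPM in bulk GFP library 1 against 139.8 to 147.5 in the other bulk GFP libraries. Irf1 was 2.77 CPM in D2 male EGFP library 4 against 3.28 to 3.48 in the others. Irf8 was 6.29 CPM in D1 female EGFP library 4 against 5.51 to 5.71, and Usp18 was 14.1 CPM in D1 male RXRa library 3 against 11.7 to 12.1.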

How the results depend on the processing

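All 9 genes kept a higher mean with RXRa in bulk under every alternative run. The count of those passing was 6, 7 without a filter on low counts (with Irf1), 8 with DESeq2 (all but Socs3), and 1 to 6 when each library was left out, the 1 being without GFP library 4, where 9 genes of the whole table passed; the cause was not tested. With the replicate number as a block, 0 of the 9 and 0 of all genes passed in bulk (3303 at an unadjusted p under 0.05), with adjusted p of 0.0543 to 0.0676 for the 6 genes. Same-numbered bulk libraries had correlations of -0.563 to 0.53, so the numbers were not taken as pairs, and they were mixed in the sorted groups too. DESeq2 called 1596 genes of the whole bulk table against 687.

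In D2, library totals alone gave 3 of the 9 (Stat2, Irf9 and Usp18, all lower), but this scaling moved the median log2 fold change of all genes from -0.04 to -0.20, so relative to that shift they fell by less. Leaving out libraries gave 0 to 1 of the 9 in D2 and 0 to 14766 of all genes (of the D2 libraries, leaving out RXRa female 4 gave 0, RXRa male 5 gave 1633, EGFP female 5 and 1 gave 5794 and 6420, RXRa male 3 gave 6102 and RXRa male 1 gave 14766); the block gave 6032 of all genes against 9683. Several values near 0 turned sign. Under library totals and with the density covariate, Irf7 in D1 became -0.055 and -0.050, Isg15 in D1 -0.052 and -0.015, and Isg15 in D2 -0.144 and -0.054. Irf7 in D2 became 0.003 with RLE factors and 0.001 with DESeq2, and Socs3 in D2 0.029 with the replicate block. When each library was left out, the log2 fold change ranged in D1 from -0.066 to 0.057 for Irf7, -0.113 to 0.007 for Socs1 and -0.104 to 0.123 for Isg15, and in D2 from -0.126 to 0.111 for Irf7, -0.236 to 0.021 for Socs1, -0.142 to 0.085 for Socs3 and -0.076 to 0.149 for Isg15. By CPM alone, 2 of the 9 kept their place in the bulk order per length under GFP and 1 under RXRa. Isg15 gave no value in the sorted fits that needed a mean CPM of at least 1. It had 4 to 30 counts per sorted library.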

Other observations

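The 73 further genes of the pathway were also read in the sorted nuclei, where 69 passed the filter on low counts. In D1 none passed an adjusted p under 0.05, and none had an unadjusted p under 0.05. In D2 14 of the 69 were higher with RXRa and passed, 7 were lower and passed, and 48 did not pass, beside 14.9% of all genes called higher and 7.14% called lower, with a median log2 fold change of -0.04, beside -0.04 for all genes. Of the roles, 7 of 10 other negative regulators were higher, with a median of 0.27 for those 10, and of 4 genes of ISG15 conjugation 0 were higher and 1 was lower; the difference between roles was not tested. In the same contrast 4 of 5 projection neuron markers were higher (median 0.57), as were 3 of 4 D2 markers (median 0.71). With silent-gene density as a covariate no gene of the whole table passed in D2.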
